A study of Mus musculus with 12 samples.

Results

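Dusp4, Dusp6, Spry1, Spry2, Spry4, Spred1, Spred2, Il17rd, Etv4 and Etv5 are 10 genes that fibroblast growth factor (FGF) signalling switches on through the kinase ERK, and most of them code for inhibitors of the same pathway. They were taken from a list of names, and 10 of 10 were found among the 18322 gene symbols of the array. Each gene was read from its brightest probe as log2 of the sample over a common reference RNA. The study measured mouse IB10 (E14) embryonic stem cells, grown on gelatin in serum with leukemia inhibitory factor, on 12 spotted oligonucleotide arrays with 2 dyes each. There were 3 polyclonal lines, each made by lentiviral infection with a pLKO-puro vector, puromycin selection and pooling of the colonies that survived. The control line carried a non-targeting hairpin, and the lines shKdm5c#1 and shKdm5c#2 carried different hairpins against Kdm5c, an X-linked demethylase of histone H3 lysine 4. Each line gave 4 independent cultures, named A to D. The reference was RNA of untreated IB10 cells, so the control line differed from it by infection, selection and pooling as well as by its hairpin.

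In mouse embryonic stem cells FGF4, made by the cells themselves, binds FGF receptors and activates ERK through Grb2, Sos, Ras, Raf and Mek, and this signal moves cells out of the naive state towards lineage commitment. ERK then induces genes that turn the signal down at several levels. Dusp phosphatases remove phosphate from MAP kinases, Sprouty and Spred proteins act between the receptor and Raf, and Il17rd (also called Sef) sits at the membrane. Etv4 and Etv5 are ETS transcription factors of the PEA3 group that carry the signal to target genes. RNA of these genes is often read as a sign of pathway activity, but no ERK activity was measured here.

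Kdm5c read -0.0067, 0.09, -0.01 and 0.0023 log2 over IB10 in control cultures A to D. With shKdm5c#1 Kdm5c read -0.62, -0.42, -0.81 and -0.63, and with shKdm5c#2 it read -0.69, -0.62, -0.75 and -0.65. Both knockdown lines stood below every control culture, at 64.1% and 61.7% of the control level. Between 84.4 and 96.4% of gene spots per array were above background in the sample channel. The brightest probes of the 10 genes were above background in that channel on 12 of 12 arrays. Pou5f1, Sox2, Nanog, Zfp42, Esrrb and Utf1, which define embryonic stem cells, were above background on all 12 arrays. Culture D of shKdm5c#2 had the largest residual spread of the arrays (SD 0.08 log2, against 0.05 at the least), and the Spry4 differences and the count with shKdm5c#1, which it moves, are given with and without it. Throughout, p-values come from limma's moderated test in 1 fit over all 12 arrays and are adjusted by Benjamini-Hochberg over 18322 genes, and a gene was called when the adjusted p was under 0.05. Each hairpin was represented by a single polyclonal line, so these p-values weigh a difference against the scatter of its cultures and cannot tell a hairpin's effect from any other difference between lines.

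For 4 of the genes called in the shKdm5c#2 line against control, the stretch of genome before their start sites is shown. Spry2 (chr14:105891947-105896819), Spred1 (chr2:117121071-117182279) and Spred2 (chr11:19924442-20024026) were lower in that line, and Il17rd (chr14:27038964-27107286) was higher. The sequences are the 250 bases upstream of an annotated start, from RefSeq on GRCm38.p6, on the gene's own strand, and capitals mark GGAA or its reverse complement TTCC, the core that ETS factors such as Etv4 and Etv5 bind. They lie at chr14:105896820-105897069 (minus strand) for Spry2, chr2:117120821-117121070 (plus strand) for Spred1, chr11:19924192-19924441 (plus strand) for Spred2 and chr14:27038751-27039000 (plus strand) for Il17rd, whose entry uses a start inside the gene span given, so the last bases of its stretch lie within that span.
Spry2: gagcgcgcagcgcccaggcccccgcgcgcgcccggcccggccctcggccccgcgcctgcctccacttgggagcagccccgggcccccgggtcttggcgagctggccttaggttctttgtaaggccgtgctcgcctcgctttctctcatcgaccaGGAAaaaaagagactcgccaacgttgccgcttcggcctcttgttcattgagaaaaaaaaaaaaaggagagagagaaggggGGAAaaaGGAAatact
Spred1: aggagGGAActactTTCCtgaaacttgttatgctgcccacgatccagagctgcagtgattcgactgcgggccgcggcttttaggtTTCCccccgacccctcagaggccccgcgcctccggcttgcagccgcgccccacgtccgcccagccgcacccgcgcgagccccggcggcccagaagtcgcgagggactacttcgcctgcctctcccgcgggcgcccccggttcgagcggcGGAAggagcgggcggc
Spred2: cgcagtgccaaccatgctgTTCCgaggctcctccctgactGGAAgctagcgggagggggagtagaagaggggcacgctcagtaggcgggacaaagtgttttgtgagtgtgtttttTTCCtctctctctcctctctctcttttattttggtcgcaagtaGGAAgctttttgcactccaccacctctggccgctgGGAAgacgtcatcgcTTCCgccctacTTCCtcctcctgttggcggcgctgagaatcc
Il17rd: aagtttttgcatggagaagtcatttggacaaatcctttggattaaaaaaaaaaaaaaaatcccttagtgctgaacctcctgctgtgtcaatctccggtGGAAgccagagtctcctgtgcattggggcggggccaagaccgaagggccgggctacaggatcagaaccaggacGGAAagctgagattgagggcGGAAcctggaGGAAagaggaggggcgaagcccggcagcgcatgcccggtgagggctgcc
The core occurs 3 times before Spry2, 4 times before Spred1, 7 times before Spred2 and 4 times before Il17rd. Of the 10 genes 7 had an entry, with 8 start sites in all because Etv5 had 2. GGAA, searched on both strands, was in 7 of these 8 stretches, the exception being the first start of Etv5, and in 93.4% of all 32851 stretches of the same length. The longer ETS motif CCGGAA was in 0 of 8 and in 12.03% of all, and the AP-1 motif TGANTCA in 0 of 8 and in 6.75% of all. These letters were searched on both strands too, CCGGAA contains GGAA, and a match is a description of the letters only. Dusp4, Spry4 and Etv4 were not matched.

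**Figure D1:**
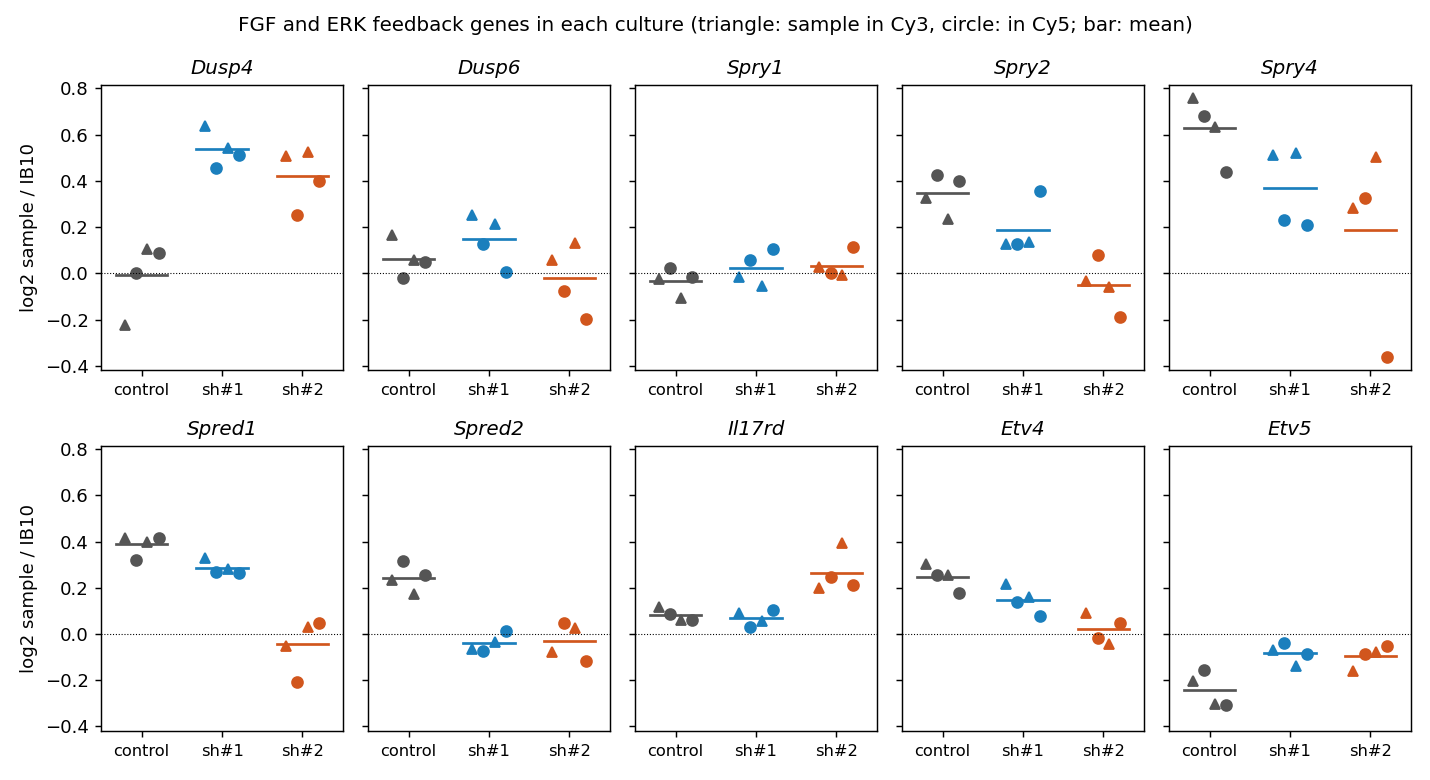
Log2 of sample over IB10 for the 10 genes in each culture of the control, shKdm5c#1 (sh#1) and shKdm5c#2 (sh#2) lines, with cultures A to D from left to right, triangles for samples in Cy3, circles for samples in Cy5 and a bar at the mean of 4. Dusp4 is higher in all 8 knockdown cultures than in any control culture, Spred2 is lower in all 8, and Spred1 drops in shKdm5c#2.

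The question of each comparison with the control line was whether reduced Kdm5c came with a change in these genes. With shKdm5c#1, 3 of the 10 genes were called, 2 higher (Dusp4 and Etv5) and 1 lower (Spred2), while 18.7% of all genes were called in this comparison (9.01% higher, 9.66% lower). With shKdm5c#2, 8 of 10 were called against 22.2% of all genes (9.96% higher, 12.3% lower). The 5 genes lower with shKdm5c#2 were Spry2, Spry4, Spred1, Spred2 and Etv4, and the 3 higher were Dusp4, Etv5 and Il17rd. Dusp4 and Etv5 rose and Spred2 fell in both comparisons, which share the 4 control cultures. The differences were small. In neither comparison did any of the 10 reach 1.5-fold, with ranges of -0.28 to 0.54 log2 with shKdm5c#1 and -0.44 to 0.43 with shKdm5c#2. Still, the median size of the 10 differences was 0.13 and 0.25 log2, against 0.05 over all genes in each comparison. The 10 genes were above background on every array, while all genes include dim ones. Without the dimmest 25% of genes, 3373 and 3916 of the 13741 left were called. The signed medians were -0.05 and -0.16 against -0.0018 and -0.0042 over all genes. Cultures of the lines compared did not overlap for 3 of the 10 genes with shKdm5c#1 and for 6 with shKdm5c#2, where 16.5% and 16.9% of all genes did not overlap. Culture values and overlaps, throughout unless stated, keep the dye effect that the fit removes. With that effect removed, the cultures of Spry4, Spred1 and Etv4 with shKdm5c#1 did not overlap control either, nor did those of Spry4 and Etv5 with shKdm5c#2. The share of all genes without overlap was not computed that way. With each array's ratios centred on their median in place of the loess curve over intensity, 0 and 2 of the 10 genes were called, and 419 and 795 of all genes. The count with shKdm5c#1 was 5 without culture D of shKdm5c#2, 6 with array weights and 7 when the shKdm5c#2 arrays were left out of the fit. The count over all genes rose in these fits as well, to 4173, 4345 and 4227 from 3419. In RNA of whole cultures, fewer cells with a transcript and less of it per cell cannot be told apart.

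Among the phosphatases, Dusp4, a nuclear enzyme that acts on ERK and other MAP kinases, gave the largest rise of the 10 genes. Its control cultures A to D read -0.23, -0.00053, 0.11 and 0.09 log2 over IB10, those of shKdm5c#1 read 0.64, 0.46, 0.54 and 0.51, and those of shKdm5c#2 read 0.51, 0.25, 0.52 and 0.40. All 8 knockdown cultures thus lay above all 4 control cultures. The rise was 0.54 log2 (standard error 0.07, 1.46-fold, limma adjusted p = 2.83e-05) with shKdm5c#1 and 0.43 (standard error 0.07, 1.35-fold, adjusted p = 0.000196) with shKdm5c#2. Between the hairpins Dusp4 differed by 0.12 log2 (95% interval -0.03 to 0.26, adjusted p = 0.301). The Dusp4 spot of control culture A was dim, with 70.5 units in its dimmer channel, or 5.59% of the median over the arrays. Without that spot the rises of Dusp4 were 0.45 and 0.33 log2 (adjusted p = 5.42e-06 and 6.51e-05). A second, dimmer probe put Dusp4 at 0.53 and 0.56 log2 above control, with adjusted p over all probes of 1.66e-07 and 4.22e-08.

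Dusp6, the cytoplasmic phosphatase that is selective for ERK, was not called against control in either line. Its values were 0.17, -0.02, 0.06 and 0.05 log2 over IB10 in the control cultures, 0.25, 0.13, 0.21 and 0.0059 with shKdm5c#1 and 0.06, -0.07, 0.13 and -0.20 with shKdm5c#2. The ranges of the lines overlapped. The differences of Dusp6 from control were 0.09 log2 (95% interval -0.0069 to 0.18, adjusted p = 0.215) and -0.08 (interval -0.18 to 0.01, adjusted p = 0.217). The hairpins themselves differed, with Dusp6 0.17 log2 higher in shKdm5c#1 than in shKdm5c#2 (standard error 0.04, limma adjusted p = 0.0118). That call was lost with no dye term (adjusted p = 0.193) and with either dye alone (0.166 in Cy5, 0.135 in Cy3).

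The Sprouty proteins are induced inhibitors of receptor tyrosine kinases, and the 3 genes did not move alike. Spry1 stayed near IB10 in every culture. It read from -0.11 to 0.02 log2 in control, from -0.05 to 0.10 with shKdm5c#1 and from -0.0072 to 0.11 with shKdm5c#2, and its differences from control were 0.05 and 0.07 log2 (95% intervals -0.02 to 0.13 and -0.01 to 0.14, adjusted p = 0.351 and 0.232).

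Spry2 read 0.33, 0.43, 0.24 and 0.40 log2 over IB10 in the control cultures. With shKdm5c#1 Spry2 read 0.13, 0.12, 0.14 and 0.36, and with shKdm5c#2 it read -0.03, 0.08, -0.06 and -0.19. The order of the lines was control, shKdm5c#1, shKdm5c#2. All 4 cultures of shKdm5c#2 lay below those of both other lines, while culture D of shKdm5c#1 lay inside the control range. Spry2 fell by 0.40 log2 with shKdm5c#2 (standard error 0.06, to 75.9% of control, limma adjusted p = 7.12e-05), and it stood 0.24 log2 higher in shKdm5c#1 than in shKdm5c#2 (standard error 0.06, adjusted p = 0.00752). Between shKdm5c#1 and control the difference of Spry2 was -0.16 log2 (95% interval -0.28 to -0.04, adjusted p = 0.0644). It was -0.21 and called without culture D of shKdm5c#1 (adjusted p = 0.0194), and it was called at -0.16 without culture D of shKdm5c#2 (adjusted p = 0.00911).

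Spry4 was the member most above IB10 in the control line, at 0.76, 0.68, 0.63 and 0.44 log2 in cultures A to D. In shKdm5c#1 Spry4 read 0.51, 0.23, 0.52 and 0.21, with the higher values in the cultures labelled in Cy3 (A and C). In shKdm5c#2 it read 0.28, 0.33, 0.51 and -0.36, so culture D lay far below the other 3 and culture C inside the control range. With the dye effect removed, culture C of shKdm5c#2 read 0.36, its highest culture, B, read 0.47, and the lowest control culture 0.49. Spry4 was 0.44 log2 lower with shKdm5c#2 than in control (standard error 0.11, 73.7% of control, limma adjusted p = 0.00654), and 0.29 lower without culture D of shKdm5c#2 (difference -0.29, standard error 0.06, adjusted p = 0.00231). Its difference with shKdm5c#1 was -0.26 (standard error 0.11, adjusted p = 0.114). Culture D of shKdm5c#2 decided whether this passed: without it the spread of Spry4 was smaller and the same -0.26 was called (adjusted p = 0.00274). The call with shKdm5c#2 was lost with no dye term (adjusted p = 0.0768) and in Cy5 alone. Between the hairpins Spry4 differed by 0.18 log2 (95% interval -0.05 to 0.41, adjusted p = 0.309), and by 0.03 without culture D of shKdm5c#2 (adjusted p = 0.826).

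The Spred proteins are relatives of Sprouty that hold back Raf activation by Ras. Of the 10 genes Spred1 had the highest F over the 3 lines (limma's moderated F = 48.3, adjusted p = 5.08e-06, rank 732 of all genes). Its control cultures read 0.42, 0.32, 0.40 and 0.42 log2 over IB10, those of shKdm5c#1 0.33, 0.27, 0.28 and 0.26, and those of shKdm5c#2 -0.05, -0.21, 0.03 and 0.05. The shKdm5c#2 cultures were apart from all 8 others. Spred1 was 0.43 log2 lower with shKdm5c#2 than in control (standard error 0.05, 74.1% of control, limma adjusted p = 2.88e-06) and 0.33 lower than with shKdm5c#1 (standard error 0.05, adjusted p = 7.10e-05). With shKdm5c#1 the difference of Spred1 from control was -0.10 (95% interval -0.20 to -0.0057, adjusted p = 0.147).

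Spred2 separated both knockdown lines from control by about the same amount. The control cultures read 0.23, 0.32, 0.17 and 0.25 log2 over IB10. In shKdm5c#1 Spred2 read -0.07, -0.07, -0.03 and 0.01, and in shKdm5c#2 it read -0.08, 0.05, 0.03 and -0.12. No knockdown culture reached the lowest control culture. Spred2 was lower by 0.28 log2 with shKdm5c#1 (-0.28, standard error 0.04, 82.1% of control, limma adjusted p = 0.000137) and by 0.27 with shKdm5c#2 (-0.27, standard error 0.04, 82.7% of control, adjusted p = 0.000129). The knockdown lines differed by -0.0094 log2 (95% interval -0.10 to 0.08, adjusted p = 0.926).

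Il17rd, a transmembrane protein that restrains FGF receptor signalling, was called higher with shKdm5c#2 and not with shKdm5c#1, and the 2 lines differed. It read 0.12, 0.09, 0.06 and 0.06 log2 over IB10 in control, 0.09, 0.03, 0.05 and 0.11 with shKdm5c#1, and 0.20, 0.25, 0.39 and 0.21 with shKdm5c#2. The 4 cultures of shKdm5c#2 lay above all others. The rise of Il17rd was 0.18 log2 against control (standard error 0.04, 1.13-fold, limma adjusted p = 0.00321), and the difference of shKdm5c#1 from shKdm5c#2 was -0.19 (standard error 0.04, adjusted p = 0.00266). The call against control was not made in Cy5 alone. With shKdm5c#1 Il17rd differed from control by -0.01 (95% interval -0.10 to 0.08, adjusted p = 0.909).

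The transcription factors Etv4 and Etv5, often induced together by FGF, were called in opposite directions with shKdm5c#2. Etv4 read 0.30, 0.26, 0.26 and 0.18 log2 over IB10 in control, 0.22, 0.14, 0.16 and 0.08 with shKdm5c#1, and 0.09, -0.02, -0.04 and 0.05 with shKdm5c#2. The lines stood in the order control, shKdm5c#1, shKdm5c#2, and the shKdm5c#2 cultures did not reach those of control. Etv4 was 0.23 log2 lower with shKdm5c#2 (-0.23, standard error 0.04, 85.4% of control, limma adjusted p = 0.000317). That call of Etv4 was not made in Cy5 alone. With shKdm5c#1 its difference was -0.10 (95% interval -0.18 to -0.02, adjusted p = 0.0903). The difference of Etv4 between hairpins, 0.13 log2 (standard error 0.04, adjusted p = 0.0268), was lost with no dye term (adjusted p = 0.0778), with either dye alone, and when any of 5 single cultures was left out (A, B or C of shKdm5c#1, B or C of shKdm5c#2, adjusted p = 0.05003 to 0.107).

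Etv5 lay below IB10 in every culture. It read -0.20, -0.16, -0.30 and -0.31 log2 in control, -0.07, -0.04, -0.14 and -0.08 with shKdm5c#1, and -0.16, -0.08, -0.08 and -0.05 with shKdm5c#2. All shKdm5c#1 cultures lay above the control cultures, while culture A of shKdm5c#2 touched the control range. With the dye effect removed, culture A of shKdm5c#2 read -0.14 and the highest control culture -0.18. Etv5 rose by 0.16 log2 with shKdm5c#1 (standard error 0.04, 1.12-fold, limma adjusted p = 0.00845) and by 0.15 with shKdm5c#2 (standard error 0.04, 1.11-fold, adjusted p = 0.0116). Neither call of Etv5 was made in Cy5 or in Cy3 alone (adjusted p = 0.118 to 0.205), and without control culture D the rise with shKdm5c#2 was 0.12 (adjusted p = 0.0515).

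**Figure D2:**
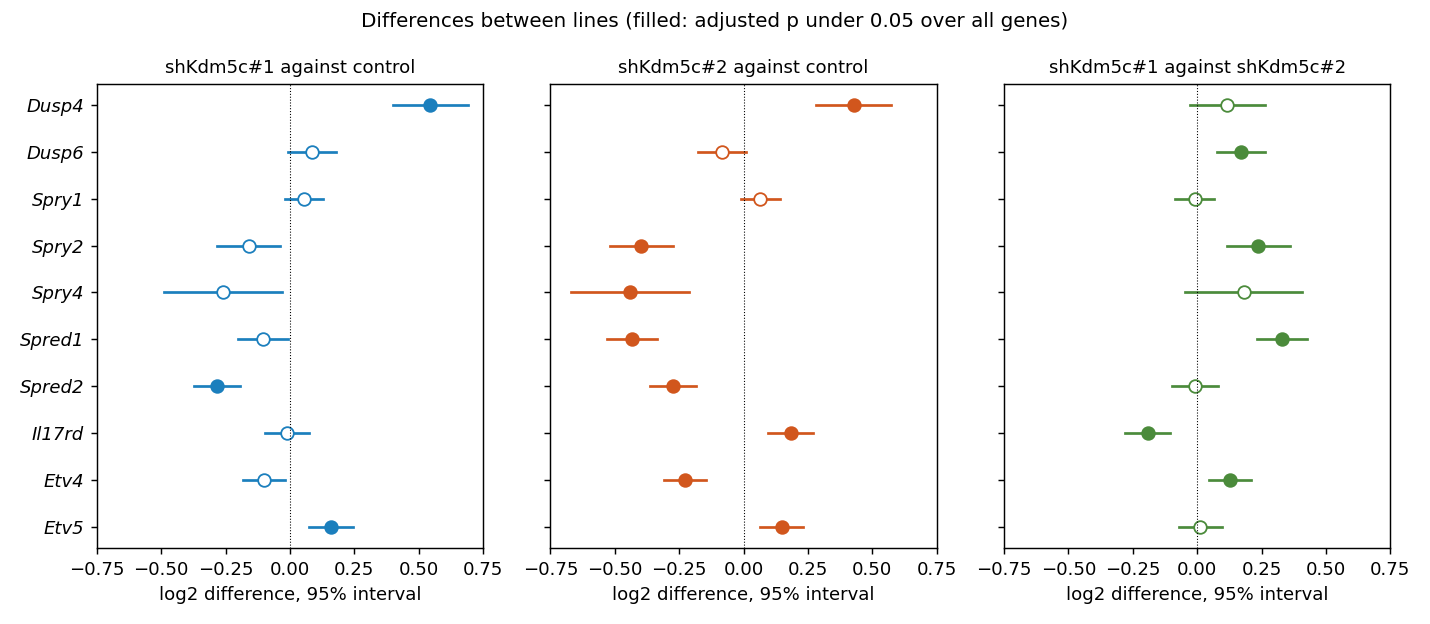
Log2 differences of the 10 genes for shKdm5c#1 against control, shKdm5c#2 against control and shKdm5c#1 against shKdm5c#2, with 95% intervals from limma and filled points where the adjusted p over all genes was under 0.05. The middle panel holds 8 filled points, 3 higher and 5 lower, the left panel 3, and the right panel 5.

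Set directly against each other, the knockdown lines differed in 5 of the 10 genes, against 18.6% of all genes (10.1% higher and 8.51% lower in shKdm5c#1). Dusp6, Spry2, Spred1 and Etv4 stood higher in shKdm5c#1 and Il17rd stood lower, by the values above. For Spry2, Spred1 and Il17rd the cultures of the hairpins did not overlap (3 of 10 genes, 14.4% of all genes). With the dye effect removed, those of Dusp6 and Etv4 did not overlap either, but the share of all genes was not computed that way. The dimmer Spry2 probe gave 0.06 log2 between the hairpins (limma adjusted p over all probes = 0.364). The other Il17rd probes gave -0.06, 0.05 and -0.03, none called. The other Spred1 probes were called, at 0.23 and 0.18 (adjusted p over all probes = 0.0120 and 0.00511). Kdm5c itself differed by 0.06 log2 between these lines (95% interval -0.05 to 0.16, adjusted p = 0.546). The comparison does not use the control cultures.

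Against the IB10 reference, the control line itself was shifted. In it 7 of the 10 genes were called, where 26.3% of all genes were (12.6% higher, 13.7% lower). Spry4 stood 0.63 log2 above IB10 (standard error 0.08, 1.55-fold, limma adjusted p = 9.81e-06), Spred1 0.39, Spry2 0.35, Etv4 0.25, Spred2 0.24 and Il17rd 0.08, and Etv5 stood at -0.24. The call of Il17rd (adjusted p = 0.0468) was kept in 10 of the 27 alternatives, and the value turned to -0.03 when all its probes were averaged (adjusted p = 0.342). Its second probe was called in the other direction, at -0.10 (limma adjusted p over all probes = 0.0161). In shKdm5c#1, 7 of 10 genes were called against IB10 and 27.1% of all genes (12.5% higher, 14.5% lower). Dusp4 at 0.54, Spry4 at 0.37, Spred1 at 0.28, Spry2 at 0.19, Etv4 at 0.15 and Dusp6 at 0.15 log2 were higher, and Etv5 at -0.08 was lower. In shKdm5c#2 only Dusp4 (0.42), Il17rd (0.26) and Etv5 (-0.09) were called, 3 of 10 against 26.3% of all genes (11.4% higher, 14.9% lower). The other Il17rd probes gave -0.01, -0.03 and 0.03 in shKdm5c#2, and none was called. The second Dusp4 probe was called but gave less than the brightest, 0.11 in shKdm5c#1 and 0.14 in shKdm5c#2 (limma adjusted p over all probes = 0.0148 and 0.00284). The median size of the 10 values over IB10 was 0.24 log2 in control, 0.15 in shKdm5c#1 and 0.05 in shKdm5c#2, beside 0.04 over all genes in each. For Spry2, Spred1, Spred2 and Etv4 the values of shKdm5c#2 over IB10 ran from -0.05 to 0.02 log2, with 95% intervals between -0.14 and 0.08. By the brightest probes of these 4 genes the control line thus stood above IB10, and shKdm5c#2 stood close to it. The dimmer probes gave smaller values in control: 0.09 for Spry2, 0.19 and 0.17 for Spred1, and 0.08 and 0.03 for Spred2. The Spred2 values were not called (limma adjusted p over all probes = 0.175 and 0.552). For Spry4 the dimmer probe gave 0.15 in control. Spry4 in shKdm5c#2 stood at 0.19 over IB10 (adjusted p = 0.0855) and, without culture D, at 0.34 (adjusted p = 2.50e-05), and Spred1 was then called at -0.09 (adjusted p = 0.0466). Cultures lay wholly on 1 side of IB10 for 7, 8 and 3 genes in the 3 lines, as they did for 33.3%, 33% and 29% of all genes. The 3 comparisons share 1 reference RNA, whose own spread was not measured.

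**Figure D3:**
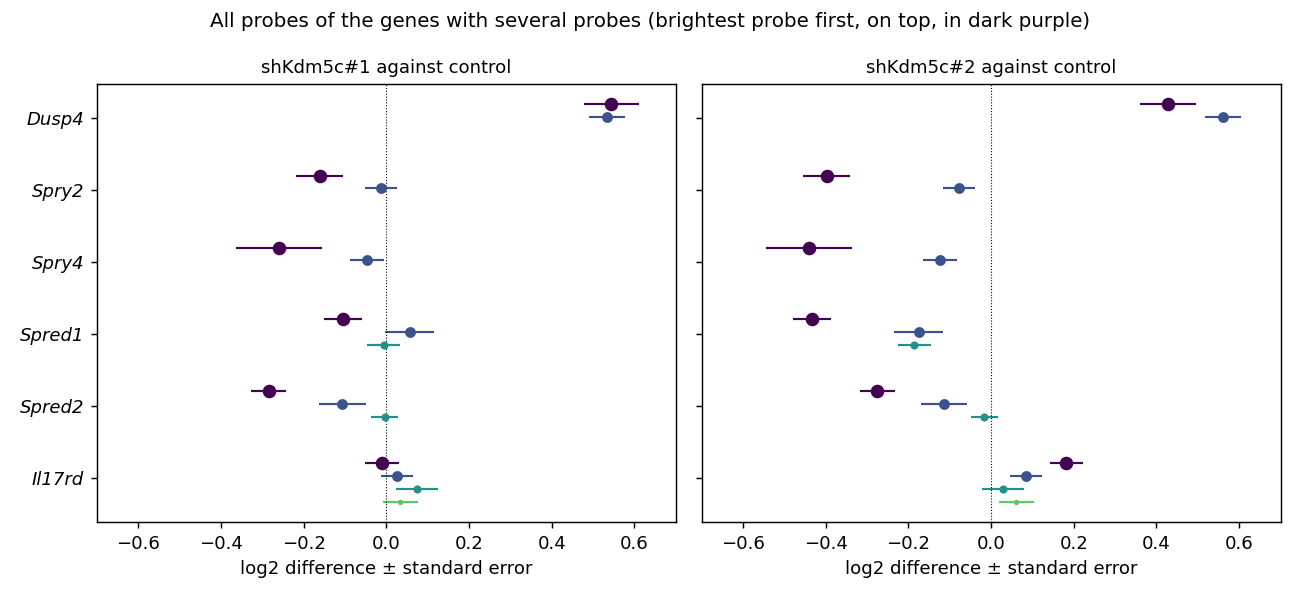
Log2 differences from control, with standard errors, for every probe of the 6 genes with several probes, from the brightest probe at the top (dark purple, largest point) to the dimmest. For Dusp4 both probes lie near 0.5, while for Spry2, Spry4, Spred1 and Spred2 the dimmer probes lie closer to 0 than the brightest.

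The size of a difference depended on the probe. Dusp6, Spry1, Etv4 and Etv5 have 1 probe each, and the other 6 genes have 2 to 4. Both Dusp4 probes rose by similar amounts, but over IB10 the second probe read -0.42 in control (adjusted p over all probes = 1.60e-08) where the brightest read -0.0071, so the level of Dusp4 against IB10 differed between probes. The dimmer Spry2 probe gave -0.01 and -0.08 log2 with shKdm5c#1 and shKdm5c#2 and was not called (adjusted p over all probes = 0.894 and 0.210). For Spry4 the dimmer probe, at a median signal of 102 against 3611 for the brightest, gave -0.05 and -0.12 (adjusted p = 0.578 and 0.05001). The other Spred1 probes agreed in direction with shKdm5c#2 and were called (-0.18 with adjusted p = 0.0476, and -0.19 with adjusted p = 0.00300). Spred2's second probe gave -0.11 in each line (adjusted p = 0.274 and 0.205), and its dimmest, above background on 7 of 12 arrays, gave -0.0042 and -0.02. The other 3 Il17rd probes gave 0.08, 0.03 and 0.06 log2 with shKdm5c#2, and none was called.

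Other genes of the pathway were taken from lists of 12 FGF ligands, 10 receptors and co-receptors, 21 members of the Ras to ERK cascade and 18 further ERK-responsive genes. Of the ligands, 3 rose and 1 fell with shKdm5c#1, and 2 rose and 1 fell with shKdm5c#2, which is 33.3% and 25% of the list beside 18.7% and 22.2% of all genes. Fgf5, a growth factor of the primed epiblast, was the largest, with 0.87 and 1.93 log2 (standard error 0.06, adjusted p = 4.32e-08 and 1.36e-12). Fgf5 read -1.03, -1.36, -0.92 and -1.22 over IB10 in control, -0.11, -0.43, -0.15 and -0.37 with shKdm5c#1 and 0.92, 0.48, 0.95 and 0.85 with shKdm5c#2, so the 3 lines did not overlap. Fgf4, the ligand of naive cells, rose by 0.23 with shKdm5c#1 (adjusted p = 0.000174) and differed by 0.0098 with shKdm5c#2 (adjusted p = 0.897). Fgf8 rose by 0.19 and 0.52 (adjusted p = 0.00606 and 2.44e-07), and Fgf18 was lower, at -0.22 and -0.34 (adjusted p = 0.000189 and 1.26e-06).

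Of the 10 receptors and co-receptors, 2 rose and 1 fell with shKdm5c#1, and 1 rose and 1 fell with shKdm5c#2, or 30% and 20% of the list, the second near the share of all genes. Fgfr1 and Fgfr2, receptors that FGF4 can bind, were not called (0.04 and -0.02 with shKdm5c#1, -0.04 and -0.07 with shKdm5c#2, adjusted p = 0.318 to 0.816). Gpc3, a cell-surface proteoglycan, rose by 0.28 and 0.75 log2 (adjusted p = 0.00108 and 2.35e-08). Flrt3, a membrane protein that binds FGF receptors, was lower at -0.31 and -0.40 (adjusted p = 0.00438 and 0.000365), and Sdc4, a syndecan, rose by 0.20 with shKdm5c#1 (adjusted p = 0.0100).

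In the cascade 18 of the 21 genes were analysed here. With shKdm5c#1, 1 rose and 2 fell: Rasa1, a GTPase activator that switches Ras off, by 0.23 log2 (adjusted p = 0.00766), the exchange factor Sos2 at -0.27 (adjusted p = 0.000443) and the adaptor Grb2 at -0.22 (adjusted p = 0.00754). With shKdm5c#2, 2 rose and 1 fell: the docking protein Gab1 by 0.15 (adjusted p = 0.0373), Mapk3, which codes for ERK1, by 0.14 (adjusted p = 0.00666) and Sos2 at -0.18 (adjusted p = 0.00818). Mapk3 gave -0.02 with shKdm5c#1 (adjusted p = 0.830). These counts are 16.7% of the cascade genes in each line, beside 18.7% and 22.2% of all genes.

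Further ERK-responsive genes, 17 of 18 measured, gave 4 higher and 0 lower with shKdm5c#1 and 5 higher and 3 lower with shKdm5c#2, or 23.5% and 47.1% of the list, beside 18.7% and 22.2% of all genes. Dusp1, Fos and Spred3 led with shKdm5c#1, at 0.31, 0.22 and 0.19 log2 (adjusted p = 1.00e-06, 0.000907 and 0.000931). With shKdm5c#2 Fos and Egr1 rose by 0.40 and 0.37 (adjusted p = 1.27e-06 and 7.78e-06). Dusp1 read -0.46, -0.30, -0.44 and -0.28 log2 over IB10 in control and -0.44, -0.28, -0.46 and -0.28 with shKdm5c#2. Myc, named after its values were seen, read 0.22, 0.03, 0.16 and 0.06 in control. With shKdm5c#2 Myc was lower, at -0.16, -0.36, -0.11 and -0.0026. Egr1 gave -0.11 with shKdm5c#1 (adjusted p = 0.107), and it stood 0.48 lower there than in shKdm5c#2 (difference -0.48, adjusted p = 7.50e-07). Phlda1 and Errfi1, the second of which codes for an inhibitor of the EGF receptor, were lower with shKdm5c#2 at -0.55 and -0.54 (adjusted p = 4.41e-08 and 4.49e-08). Phlda1 rose by 0.17 with shKdm5c#1 (adjusted p = 0.00649). Between hairpins Phlda1 and Errfi1 differed by 0.73 and 0.60 log2, higher in shKdm5c#1 (adjusted p = 3.32e-09 and 2.36e-08).

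**Figure D4:**
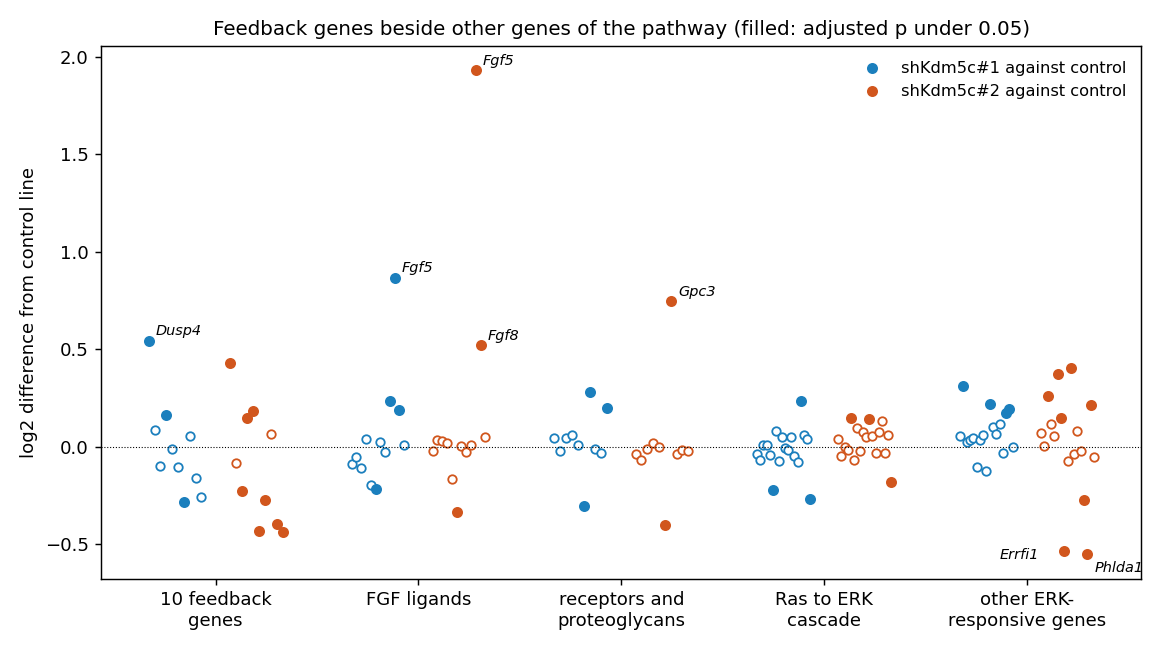
Log2 difference from the control line for the 10 feedback genes and for FGF ligands, receptors and proteoglycans, cascade members and other ERK-responsive genes, with shKdm5c#1 in blue, shKdm5c#2 in orange and filled points where the adjusted p over all genes was under 0.05. Fgf5 stands at 0.87 and 1.93, while the 10 feedback genes lie between -0.44 and 0.54.

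The genes most like Spred1 and Dusp4, the members with the largest F over the lines, were sought by Pearson's r over the 12 cultures with the dye effect removed, among 662 genes above background on all arrays and with an SD of at least 0.2 log2. The 12 points are 3 lines of 4 and share 1 reference, so r mainly follows the line means. Nearest to Spred1 were F2r (r = 0.985), Runx1t1 (0.981), Impa1 (0.980), Nfkb1 (0.980) and Elovl6 (0.975). F2r, a thrombin receptor, had means over IB10 of 0.12 in control, -0.10 in shKdm5c#1 and -0.88 in shKdm5c#2. For Dusp4 they were 1810063B07Rik (r = 0.956), Pck2 (0.926), Dgka (0.925), Atf4 (0.922) and Ltb (0.922). The first of these had means of -0.04, 0.50 and 0.39 over IB10 in control, shKdm5c#1 and shKdm5c#2, beside -0.0071, 0.54 and 0.42 for Dusp4. The dim control spot of Dusp4 entered these correlations.

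Markers of other cell states also moved between the lines. The mean log2 over IB10 of 6 primed epiblast markers, Fgf5 among them, was -0.67 in control, -0.32 in shKdm5c#1 and 0.31 in shKdm5c#2, and 5 of 6 were called higher in each knockdown line. Their summed signal was 2622 to 4281.5 in control cultures, 3575 to 5288 in shKdm5c#1 and 5968 to 8292 in shKdm5c#2, and all 6 were above background on all arrays. Summed signals here are raw spot medians of the sample channel, without background correction or normalization. They mix arrays with the sample in Cy3 and in Cy5, so they show the level of signal and are not comparable between lines as the ratios are. Mesoderm markers, 6 of 6 above background on all arrays, averaged -0.45, -0.12 and 0.20, with 4 of 6 higher and 1 lower in each knockdown line and a summed signal of 714.5 to 1026, 1188 to 1651 and 1464 to 2355. Extraembryonic endoderm markers, 5 of 7 above background on all arrays, averaged 0.29, 0.02 and -0.06, with 4 and 5 of 7 lower and summed signals of 834 to 1209.5, 825 to 1773 and 697 to 995. Trophectoderm markers averaged -0.55, 0.13 and -0.22, with 5 and 3 of 6 higher, and summed signals of 1790 to 3042, 4779.5 to 7185 and 3189 to 4363.5. Fibroblast markers averaged -0.01, -0.19 and -0.32, with 3 of 6 lower in each line, 2 and 1 higher, and summed signals of 1273.5 to 1928.5, 1156.5 to 1461.5 and 1001.5 to 1202. No marker of these lists was below background on every array. The part of these markers in the results for the feedback genes was not tested. Nanog was lower in both knockdown lines (-0.22 and -0.38 log2, adjusted p = 0.0247 and 0.000331) and Esrrb in shKdm5c#2 (-0.29, adjusted p = 0.00489), both named after their values were seen, and the other embryonic stem cell markers were not called.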

How the data were processed

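Per the labels, the reference was in Cy5 for cultures A and C and in Cy3 for B and D. The deposited raw files give intensities of spots and local background, per the file headers, not normalized. The authors' deposited table holds log2 of their normalized Cy5 over Cy3 signal, as a check against their derived files showed (largest difference 5.00e-10), by a method not given in the sources used here.

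From the raw intensities, background was corrected with normexp (offset 50) and ratios were loess-normalized within arrays in limma 3.58.1 under R 4.3.3, with control spots at weight 0, then turned to sample over IB10. The brightest of a gene's probes stood for it (34186 probes, 18322 genes), with no filter and no array left out. The model (lmFit, eBayes) had a coefficient for each line and one for dye orientation. It was also run on simulated ratios with independent normal noise, which cannot show errors that come from normalization or dye. A spot was above background when it passed the background median by 2 SDs. The number of arrays limits the precision (median standard error 0.04 log2 between lines). Culture letters did not pair the samples, so the main model has no block. Figures used matplotlib 3.10.9.

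The text names all 10 members, up to 3 called genes with the largest differences per pathway list and comparison, and always Fgf4, Fgfr1, Fgfr2, Mapk3, Egr1 and Kdm5c. Members and lists were chosen with earlier results of these data known. Dusp5 was not analysed here. Alternatives covered background, normalization, probes, filters, dyes, array weights, the arrays fitted and single cultures.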

Additional observations from a re-analysis of the deposited data

Results flagged for a closer look

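Spry2 in culture D of shKdm5c#1 stood at 0.357 log2 over IB10, apart from the other 3 cultures of that line at 0.12 to 0.14. Spred1 in culture B of the control line stood at 0.319, below the other 3 at 0.40 to 0.42. These were 2 of 30 groups of 4 cultures tested for a stray value. Chance gives such a value in about 1 of 20 groups when dyes are not mixed. The ratios tested kept the dye effect, and each group held both dyes. With the effect removed, cultures A to D read 0.166, 0.086, 0.176 and 0.318 for Spry2 in shKdm5c#1. For Spred1 in control they read 0.392, 0.344, 0.375 and 0.442.

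The effects of the hairpins, each against the same control line, differed by the fit's own test for 5 genes. The effect of shKdm5c#1 minus that of shKdm5c#2 was 0.169 for Dusp6, 0.237 for Spry2, 0.330 for Spred1, 0.129 for Etv4 and -0.193 for Il17rd (limma adjusted p = 0.0118, 0.00752, 7.10e-05, 0.0268 and 0.00266). For Spry2, Spred1 and Il17rd all 4 cultures of a line lay on the same side of the other line. The dimmer probes of Spry2 and Il17rd gave no called difference between the hairpins, while those of Spred1 did.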

How the results depend on the processing

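Over 60 values (10 genes in 6 comparisons) and 27 alternatives each, 1521 of 1620 kept their direction and their side of the threshold, 79 lost a call, 19 gained one and 1 reversed: Il17rd in control against IB10, -0.027 with the mean of all probes. Spred1 in shKdm5c#2 against control was called in all 27 alternatives (adjusted p up to 0.0435), and Dusp4, Spry2 and Spred2 there in 26, the exception being median centring. With median centring the genes called were 0 for shKdm5c#1 against control, 2 for shKdm5c#2 against control, 0 between the hairpins and 3 for shKdm5c#1 against IB10. The sample in Cy5 only, with 2 cultures per line, gave 4 for shKdm5c#2 against control, 0 between the hairpins and 2 for shKdm5c#1 against IB10. Those 4 were Dusp4, Spry2, Spred1 and Spred2. Between the hairpins, no dye term gave 3 and the sample in Cy3 only gave 3. For shKdm5c#1 against control, fitting only the groups compared gave 7 and array weights gave 6. Leaving out single cultures gave 3 to 5 genes for shKdm5c#1 against control and 2 to 5 for shKdm5c#2 against IB10, the highest without culture D of shKdm5c#2 in each. The cause of these changes was not tested. Leaving out dim spots, chosen after seeing the data, kept every count of calls.

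Over all genes, 3419, 4074, 3404, 4816, 4958 and 4810 were called for shKdm5c#1 against control, shKdm5c#2 against control, shKdm5c#1 against shKdm5c#2, and control, shKdm5c#1 and shKdm5c#2 against IB10. In that order the sample in Cy5 only called 812, 1298, 741, 2741, 2914 and 2502, and no dye term called 1944, 2607, 2007, 3164 and 3195 in the first 5. The sample in Cy3 only called 1940 for shKdm5c#1 against control and 2256 between the hairpins, and only the groups compared gave 2913 for shKdm5c#2 against IB10. Median centring called 419, 795, 474, 988, 750 and 1204, and moved the share called higher to 59.4% from 48.3% (shKdm5c#1 against control), to 71.5% from 54.2% (between the hairpins) and to 35.0% from 47.9% (control against IB10). Same-lettered cultures correlated at r = -0.275 to 0.284 in their residuals, with 4 of 12 pairs over 0.1 and 3 of 12 arrays closest to their own letter. A replicate block of letters in place of the dye term called 4, 8, 5, 7, 7 and 4 of the 10 genes, and 3837, 4520, 3753, 5192, 5285 and 5181 of all genes. No slide or scan block was fitted, as the headers used here name neither.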
